A study of Drosophila melanogaster with 8 samples.

Results

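At 426 sites of the Drosophila genome, both SIN3 isoforms had a single matching peak, yet the point of highest enrichment lay at different places in the 2 peaks. Each site was a pair of filtered peaks, 1 per isoform, in which each peak shared at least 1 bp with exactly 1 filtered peak of the other isoform and was in turn its only match. The wider peak was less than 2 times as wide as the narrower, at least 1 of the 2 was under 1500 bp wide, and the summits lay more than 150 bp apart. A summit is the base at which the peak caller found the highest pileup of fragments. Of 3869 partner pairs, 304 failed the limit on the ratio of widths and a further 529 consisted of 2 peaks of 1500 bp or more, which left 3036 eligible pairs. The 426 displaced pairs made up 14.0% of these (426 of 3036, exact 95% interval 12.8 to 15.3%), and held 852 of the 10713 filtered peaks. They occupied 426 of the 6219 regions into which the peaks of both filtered lists merged. The sites were chosen by the distance between summits and by the widths and overlaps of the peaks, so these values are given as a description.

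SIN3 is the scaffold of a histone deacetylase complex, in which it holds the deacetylase RPD3 and accessory proteins together, and it is recruited to chromatin largely at the promoters of genes. SIN3 187 and SIN3 220 are made from 1 gene by splicing and differ at the C-terminal end. Around the start of an active gene, the region upstream of the start is typically poor in nucleosomes and the first nucleosomes downstream of it are well placed, so that points a short distance apart can lie in different chromatin settings.

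The series comprised 8 ChIP-seq samples in 4 groups of 2 replicates: for a SIN3 187HA line and for a SIN3 220HA line of S2 cells, the DNA precipitated through HA and the input DNA from the same chromatin. S2 is a cultured line of embryonic origin, both lines were stable transfectants with the HA-tagged isoform under a metallothionein promoter, and an antibody against HA was used in both. The SIN3 187HA line was induced with copper sulphate whereas the SIN3 220HA line was used without induction because its promoter was leaky, so the isoform and the induction cannot be told apart. Both lines descend from cells that make untagged SIN3 220, and no immunoprecipitate of untagged cells was analysed here. Peaks were called on both replicates together, which leaves 1 list per isoform and no measure of the variation between replicates. No test between the isoforms was therefore possible, and the intervals given are exact binomial intervals that cover counting error alone. The filtered lists held 4903 peaks for SIN3 187HA and 5810 for SIN3 220HA, and positions refer to the dm3 build.

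The distances between summits formed a long tail and not a separate group. Among all eligible pairs, 2200 had summits 50 bp or less apart, 273 had summits more than 50 and up to 100 bp apart, and 137 more than 100 and up to 150 bp. The next bins of 50 bp held 103, 83 and 73 pairs, so the counts fell smoothly across the limit of 150 bp. The displaced pairs had a median distance of 266.5 bp (quartiles 203 and 385.75 bp, maximum 1071 bp), against a median of 13 bp in the 2610 other pairs. By distance, 103 of them lay at 200 bp or less, 156 at more than 200 and up to 300 bp, 104 at more than 300 and up to 500 bp, and 63 beyond 500 bp. Relative to the width of the narrower peak, the median displacement was 33.2% (quartiles 25.4 and 43.6%).

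**Figure D1:**
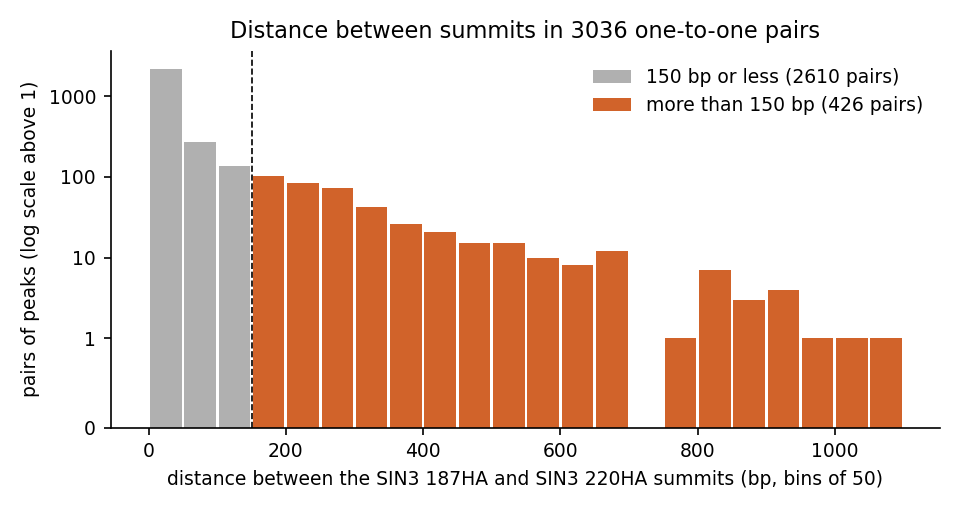
Number of one-to-one pairs of SIN3 187HA and SIN3 220HA peaks by the distance between their summits, in bins of 50 bp on an axis that is logarithmic above 1. Grey bars hold the 2610 pairs at 150 bp or less and orange bars the 426 displaced pairs, and the counts fall from 2200 in the first bin to 103 just beyond the dashed limit with no gap there.

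The pairs at the limit itself varied in enrichment and in their edges. Just inside it, at 151 bp, lay a pair on 2L (SIN3 187HA peak at 12483485 to 12484672, fold enrichment 3.34, and SIN3 220HA peak at 12483585 to 12484587, fold enrichment 4.31). A pair on 2R, with the SIN3 187HA peak at 14313663 to 14314360 and the SIN3 220HA peak at 14313533 to 14314301, also had summits 151 bp apart, with fold enrichments of 6.62 and 7.81. Just outside, at 150 bp, lay a pair on 2L with the SIN3 187HA peak at 16299484 to 16300485 and the SIN3 220HA peak at 16299433 to 16300475, with fold enrichments of 7.11 and 7.79 and edges that differed by 51 and 10 bp. The limit left the first pair, which was weakly enriched in both lists, inside and the third, which was more enriched, outside. The other pair outside was on 2R, with peaks at 6316760 to 6318250 and at 6316153 to 6318377, fold enrichments of 6.16 and 8.10, and edges that differed by 607 and 127 bp.

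In genome coordinates, neither isoform led. The SIN3 220HA summit had the higher coordinate at 214 of 426 sites (50.2%, interval 45.4 to 55.1%), and at the other 212 sites the SIN3 187HA summit did. Over all eligible pairs whose summits differed the share was 50.7% (1463 of 2886). The split was equally even on the X chromosome, where the SIN3 220HA summit was the higher at 33 of 66 sites.

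Relative to the direction of transcription the picture was different at the sites where it could be read. RefSeq transcripts with dm3 positions were held for the first part of 2L only, up to position 10249609, with 1981 transcripts of which 1863 had a symbol, and 34 displaced pairs and 255 other pairs lay in that stretch. At 25 of the 34 displaced pairs (73.5%, interval 55.6 to 87.1%) a transcript start lay within 500 bp of the middle between the summits, and at 204 of the 255 other pairs (80.0%, interval 74.6 to 84.7%). Of these 25 sites, the SIN3 220HA summit lay downstream of the SIN3 187HA summit, in the direction of transcription of the nearest start, at 20 (80.0%, interval 59.3 to 93.2%). The background over all eligible pairs with a start and summits that differed was 61.6% (135 of 219), and the other pairs alone gave 115 of 194 (59.3%, interval 52.0 to 66.3%). The intervals of the displaced and the other pairs overlap, and this comparison was chosen after the data had been seen.

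At 21 of the 25 sites the summits fell on either side of the nearest start, and at 4 both lay on the same side. The SIN3 187HA summit lay at a median of -132 bp, that is upstream of the start (quartiles -235 and -63 bp), and was upstream at 21 of 25 sites. The SIN3 220HA summit lay at a median of 102 bp downstream (quartiles 56 and 160 bp) and was upstream at 6 of 25 sites. At the 204 other pairs near a start, the medians were -24 bp for SIN3 187HA and -5 bp for SIN3 220HA, and 111 and 105 of the summits lay upstream. In their medians, the summits of the displaced pairs lay farther from the start than those of the other pairs, in opposite directions. The rule on distance sets the summits apart, but not which of them is upstream.

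**Figure D2:**
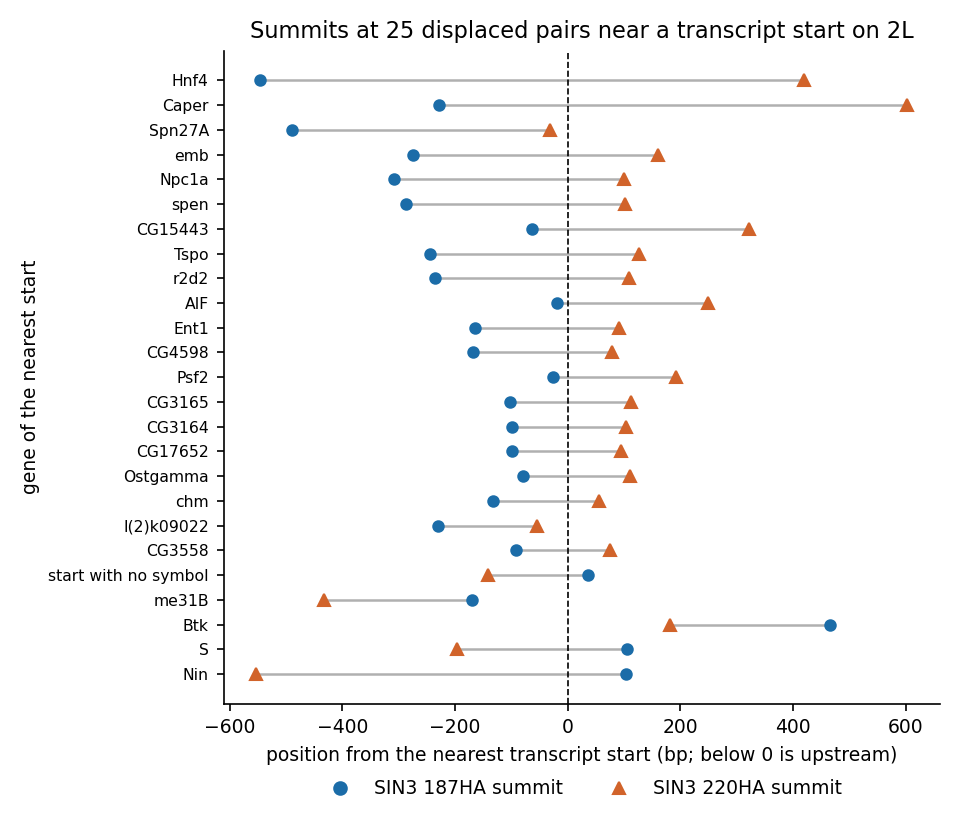
Positions of the SIN3 187HA summit (blue circles) and the SIN3 220HA summit (orange triangles) from the nearest transcript start, in bp along the direction of transcription, at the 25 displaced pairs on the first part of 2L with a start within 500 bp of the middle between the summits. In the upper 20 rows the SIN3 220HA summit lies downstream of the SIN3 187HA summit, and in the lower 5 rows upstream of it.

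A transcript start lay between the summits at 21 of the 34 sites, against 17 of the 255 other pairs, whose shorter gaps leave less room for one. Starts of 1 strand alone lay between the summits at 16 sites, and at 16 of 16 the SIN3 187HA summit was on the upstream side and the SIN3 220HA summit on the downstream side (100%, interval 79.4 to 100%). In the other pairs with starts of 1 strand between the summits the order was the same at 11 of 15 (73.3%, interval 44.9 to 92.2%), so the 2 intervals overlap here as well. Where only starts of 1 strand lay anywhere in the region spanned by the 2 peaks, the SIN3 220HA summit was downstream at 9 of 12 displaced and at 77 of 120 other pairs. Starts of both strands lay in that region at 15 of the 34 sites (44.1%) and at 82 of the 255 other pairs (32.2%). These displaced sites were all among the 25 with a start within 500 bp of the middle between the summits. They included most of the 16 sites, namely spen, r2d2, Npc1a, Ostgamma, CG17652, CG3165, CG3558, CG15443 and CG4598. There the order was reversed along the strand of the other gene. In genome coordinates the SIN3 220HA summit was the higher at 19 of the 34 sites (55.9%, interval 37.9 to 72.8%), an interval that includes an even split.

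The 16 sites with starts of 1 strand between the summits included genes of several kinds. At spen, which encodes an RNA-binding transcriptional regulator, the SIN3 187HA summit lay 286 bp upstream and the SIN3 220HA summit 102 bp downstream of the start. At chm (chameau), a histone acetyltransferase of the MYST family, the summits lay 132 bp upstream and 56 bp downstream. Both genes act on transcription or chromatin themselves.

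Hnf4, a nuclear receptor of lipid and sugar metabolism, had the widest separation of the 16, with the SIN3 187HA summit 546 bp upstream and the SIN3 220HA summit 419 bp downstream. At Npc1a, which moves cholesterol out of the endosomal compartment, the summits lay 309 bp upstream and 100 bp downstream. At Tspo, a protein of the mitochondrial outer membrane, they lay 245 bp upstream and 126 bp downstream. At AIF, the mitochondrial apoptosis-inducing factor, the SIN3 187HA summit was almost at the start, 19 bp upstream of it, and the SIN3 220HA summit 250 bp downstream. These 4 genes show that the separation could be symmetric about the start or lie nearly all on 1 side of it.

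At r2d2, the partner of Dicer-2 in RNA interference, the summits lay 235 bp upstream and 109 bp downstream. At Psf2, a subunit of the GINS complex of DNA replication, they lay 25 bp upstream and 192 bp downstream, and at Ostgamma, a subunit of the oligosaccharyltransferase, 80 bp upstream and 110 bp downstream. At Ent1, a nucleoside transporter, they lay 165 bp upstream and 92 bp downstream. The remaining 6 starts were those of CG3164, CG17652, CG3165, CG3558, CG15443 and CG4598, where the SIN3 187HA summit lay 63 to 168 bp upstream and the SIN3 220HA summit 75 to 322 bp downstream. Along the gene whose start lay between the summits, the order was the same at all 16 sites.

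At 5 of the 34 sites starts of both strands lay between the summits, so no single direction applied. At Caper with Rab30 and at emb with fy, the SIN3 220HA summit lay downstream of the nearer start. Caper encodes a splicing factor and emb the nuclear exportin. At Caper the summits lay 229 bp upstream and 603 bp downstream of its start, 832 bp apart in all. At 3 sites, S with ast, Nin with Bub1, and Coq6 with a start that has no symbol, the SIN3 187HA summit lay downstream of the nearest start and the SIN3 220HA summit upstream. The label of such a site as upstream or downstream therefore depends on which of the 2 genes is taken.

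A further pair of sites near a start went the other way with no start between the summits. At Btk, a Tec-family tyrosine kinase, both summits lay downstream of the start, SIN3 187HA at 466 bp and SIN3 220HA at 181 bp. At me31B, an RNA helicase of translational repression, both lay upstream, SIN3 187HA at 170 bp and SIN3 220HA at 433 bp. Conversely, at Spn27A, a serpin of the immune response, and at l(2)k09022 both summits lay upstream with SIN3 220HA the nearer to the start, at 31 and at 54 bp. Together with the 3 sites that had starts of both strands between the summits and the reverse order, Btk and me31B were all 5 of the exceptions among the 25 sites.

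The other 9 sites of the stretch had no start within 500 bp of the middle between the summits. The pair nearest to Ets21C, which encodes an ETS transcription factor, had both summits upstream of the start, at 355 bp for SIN3 187HA and 1003 bp for SIN3 220HA. Where the nearest start was that of aop, which encodes the ETS repressor Yan, they lay 3331 and 3787 bp downstream, and where it was that of Pvr, a receptor tyrosine kinase, 5677 and 5413 bp downstream. Near Akap200, an anchoring protein of protein kinase A, the summits lay 1437 and 2353 bp downstream of the start. None of these 9 sites therefore entered the count of summits by direction.

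The 10 sites with the longest distances had summits 871 to 1071 bp apart. Of these, 4 were on the X chromosome, which held 66 of all 426 displaced pairs (15.5%). The displaced pairs on X had lower median pileups than all displaced pairs, at 79 against 110 for SIN3 187HA and 116.5 against 190 for SIN3 220HA. Their median backgrounds were lower as well, at 12.5 against 20.5 and 19.8 against 30.6. Median fold enrichment on X was 5.43 against 5.15 for SIN3 187HA and 5.61 against 6.06 for SIN3 220HA. The other pairs on X were not summarised, so whether the lower pileup is particular to displaced pairs was not tested. On X, a SIN3 187HA peak at 7628436 to 7629812 had its summit at 7628567 and a SIN3 220HA peak at 7628291 to 7629768 had its summit at 7629638, so each isoform peaked near the opposite end of almost the same interval. The starts of these 2 peaks differed by 145 bp and the ends by 44 bp, although the summits were 1071 bp apart. On 3R, peaks at 5934759 to 5936216 and at 5934857 to 5936198 had summits 1030 bp apart, with SIN3 187HA the higher in coordinate. At Hnf4 on 2L, the edges of the SIN3 187HA peak (8708397 to 8709749) differed by 14 and 15 bp from those of the SIN3 220HA peak (8708411 to 8709734), and the summits were 965 bp apart. At all 3 sites, nearly unchanged intervals held summits at opposite ends.

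**Figure D3:**
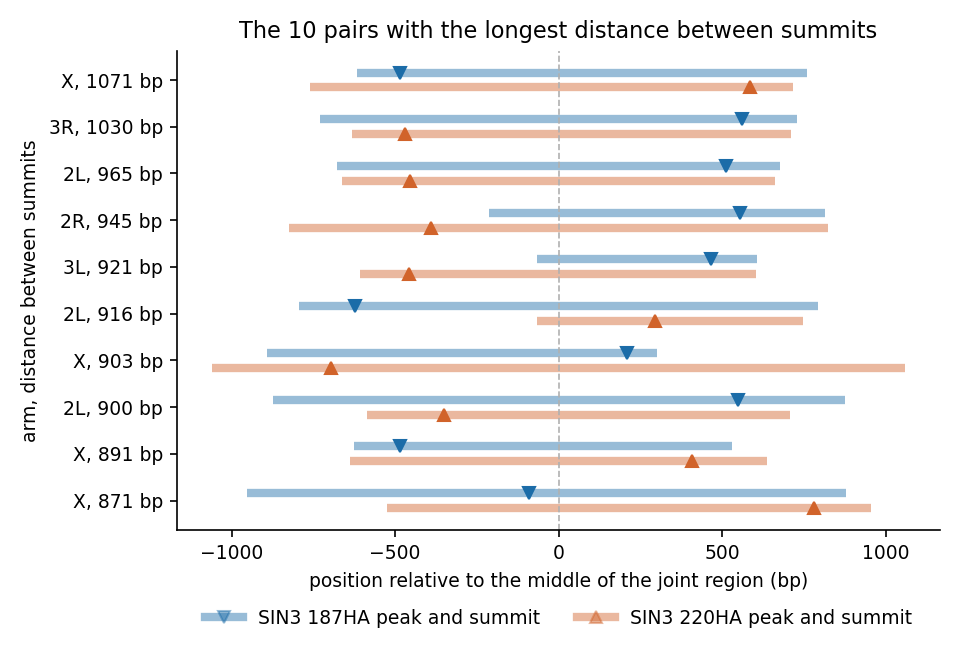
The 10 pairs with the longest distance between summits, drawn to scale around the middle of the joint region in bp, with the SIN3 187HA peak as a blue bar and the SIN3 220HA peak as an orange bar and each summit as a triangle. The summits are 871 to 1071 bp apart and lie on opposite sides of the middle in each of the 10 pairs.

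Other sites among the 10 differed in an edge as well. On 2R, the SIN3 220HA peak at 9038739 to 9040389 began 611 bp before the SIN3 187HA peak at 9039350 to 9040379, and on 3L the SIN3 220HA peak at 18890634 to 18891845 began 539 bp before the SIN3 187HA peak at 18891173 to 18891846. Near Akap200 on 2L, the SIN3 187HA peak at 8421139 to 8422726 began 727 bp before the SIN3 220HA peak at 8421866 to 8422681. In these 3 pairs the summit of the longer peak lay in the stretch that the other filtered peak did not cover. In the unfiltered lists a further peak touched or overlapped the region of the 3L pair and of the pair near Akap200. The stretch was thus not necessarily free of peaks of the other isoform there. On 2R the nearest other unfiltered peak lay 5017 bp away. The remaining 4 sites lay on X at 16492329 to 16493522, 8292091 to 8293249 and 14936847 to 14938679, and on 2L at 21051014 to 21052763 (positions of the SIN3 187HA peaks).

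A summit outside the partner peak was rare over all 426 sites. The SIN3 187HA summit lay outside the SIN3 220HA peak at 5 sites (1.17%, interval 0.38 to 2.72%), and the SIN3 220HA summit outside the SIN3 187HA peak at 4 (0.939%, interval 0.26 to 2.39%). Neither occurred in the 2610 other pairs, and both depend on the distance that chose the sites. At most sites with a summit outside the partner peak, another peak of the unfiltered lists touched or overlapped the region of the pair. At 423 of 426 sites (99.3%) the overlap covered at least 50% of both peaks, which is the background share among eligible pairs (99.2%, 3013 of 3036), and the overlap covered a median of 99.4% of the SIN3 187HA peak and 89.2% of the SIN3 220HA peak. The displaced pairs were like the other eligible pairs in this respect.

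The edges of the peaks were kept somewhat less often than in the pairs with summits 150 bp or less apart. Both edges differed by 100 bp or less at 138 of 426 sites (32.4%, interval 28.0 to 37.1%), with a background of 37.2% over all eligible pairs, and at 992 of the 2610 other pairs (38.0%, interval 36.1 to 39.9%). A further 221 displaced pairs kept 1 edge (51.9%, background 47.3%), and 67 kept neither (15.7%, background 15.4%). By distance, the share that kept both edges was 39.8% at 200 bp or less, 33.3% at more than 200 and up to 300 bp, and 20.2% (21 of 104, interval 13.0 to 29.2%) at more than 300 and up to 500 bp. It was 38.1% (24 of 63, interval 26.1 to 51.2%) beyond 500 bp, so it fell over the first 3 classes and was higher again in the last.

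The most similar edges were found at 3 sites. On 2L, the SIN3 187HA peak at 5531998 to 5532688 and the SIN3 220HA peak at 5531998 to 5532690, which is the site with a Coq6 start between its summits, differed by 2 bp in their ends and had summits 178 bp apart. On 3L, peaks at 21209695 to 21210627 and at 21209697 to 21210627 differed by 2 bp in their starts and had summits 213 bp apart. The third, also on 3L, had peaks at 4103348 to 4104193 and at 4103338 to 4104194 and summits 332 bp apart. At such sites the lists of intervals alone would show no difference between the isoforms.

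The middle of the peak followed the summit only in part. The midpoint of the SIN3 220HA peak was shifted to the same side as its summit at 293 of 426 sites (68.8%, interval 64.1 to 73.2%), against 1306 of 2460 other pairs whose summits differed (53.1%, interval 51.1 to 55.1%). The size of the midpoint shift had a median of 66.25 bp, which is small beside the median summit distance of 266.5 bp, and was 52 bp in the other pairs. Across the 426 sites, which share the same 2 lists, the signed summit displacement and the signed midpoint shift had a Pearson correlation of 0.308, against 0.091 over the 2610 other pairs. At 288 sites (67.6%, interval 62.9 to 72.0%) the summits lay on opposite sides of the middle of the joint region, which a longer distance makes more likely.

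The displaced pairs were wider and less enriched than the others. The median width was 961 bp against 737 bp for the SIN3 187HA peaks, and 1061.5 bp against 833 bp for the SIN3 220HA peaks. The median fold enrichment at the summit was 5.15 (quartiles 4.33 and 6.51) against 6.28 for SIN3 187HA, and 6.06 (quartiles 4.54 and 7.80) against 7.32 for SIN3 220HA. Fold enrichment was compared within each isoform here because the lists differ in depth. As percentiles of the filtered list of the same isoform, the displaced pairs had medians of 34.8 for SIN3 187HA and 47.8 for SIN3 220HA, and the other pairs 54.4 and 61.5. In the SIN3 187HA list 287 of 426 (67.4%, interval 62.7 to 71.8%) lay below the median of their list, against a background of 48.2% over all eligible pairs. In the SIN3 220HA list 228 did (53.5%, interval 48.7 to 58.3%), against a background of 39.4%.

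**Figure D4:**
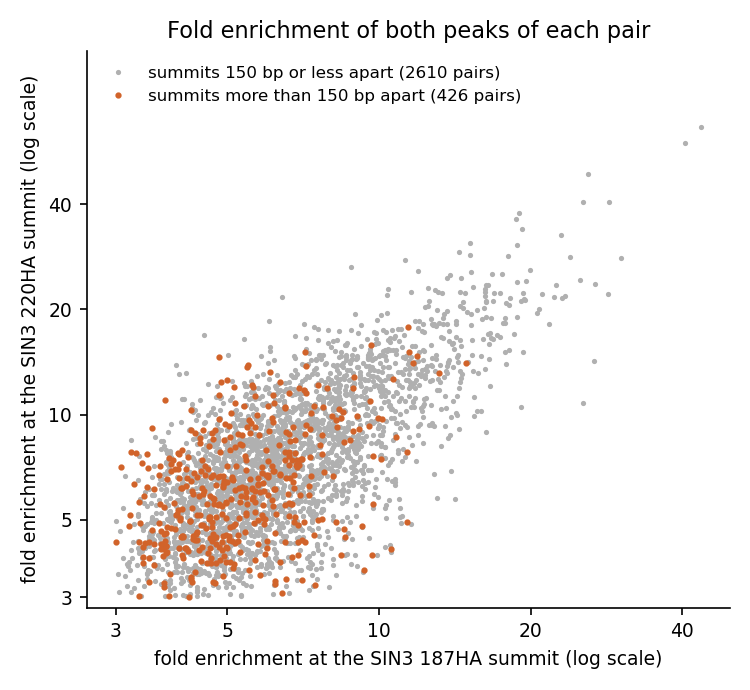
Fold enrichment at the SIN3 187HA summit (horizontal axis) and at the SIN3 220HA summit (vertical axis) of each one-to-one pair, on log scales, with the 2610 other pairs in grey and the 426 displaced pairs in orange. The displaced pairs sit mostly in the lower left, with medians of 5.15 and 6.06, and are absent from the most enriched sites at the upper right.

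The displaced pairs had fewer fragments at the summit and, for SIN3 187HA, a slightly higher background. The pileup recovered from the fold enrichment and the p-value had a median of 110 fragments against 129 for SIN3 187HA, and of 190 against 226 for SIN3 220HA. The recovered background had medians of 20.5 against 19.5 for SIN3 187HA and of 30.6 against 30.2 for SIN3 220HA. For SIN3 187HA it was the higher in each of the 5 quintiles of the eligible pairs by the width of the narrower peak. For SIN3 220HA the direction varied between these quintiles. Its medians were 27.41 in both groups in the narrowest quintile, 31.04 against 29.83 in the middle one and 31.03 against 31.85 in the widest. In both lists the displaced pairs thus had lower pileup and greater width than the other pairs. Among the displaced pairs, median pileup did not fall with distance. From 200 bp or less to beyond 500 bp, it was 103, 112.5, 119.5 and 116 for SIN3 187HA. For SIN3 220HA it was 165, 190.5, 203.5 and 187. Median width rose over these classes, from 708 to 1237 bp and from 777 to 1324 bp. The highest point can be less certain in a peak of fewer fragments and has more room in a wider one. Whether pileup, background or width had a part in the displacement was not tested, because the files give 1 summit per peak and no profile or replicate.

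The share of displaced pairs rose with width and fell with enrichment. In quintiles of the eligible pairs by the width of the narrower peak, it was 5.72% (interval 4.02 to 7.86%) in the narrowest quintile, then 9.95, 11.2 and 18.5%, and 24.9% (interval 21.5 to 28.6%) in the widest. By fold enrichment of the SIN3 187HA peak it fell from 22.3% (interval 19.1 to 25.8%) in the lowest quintile to 4.61% (interval 3.09 to 6.60%) in the highest, and by that of the SIN3 220HA peak from 20.4% to 5.60%. By recovered pileup it fell from 20.5% in the lowest quintile to 6.32% (SIN3 187HA) and 6.81% (SIN3 220HA) in the highest. Even among the most enriched quintile of SIN3 187HA peaks, 28 of 607 pairs had displaced summits.

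**Figure D5:**
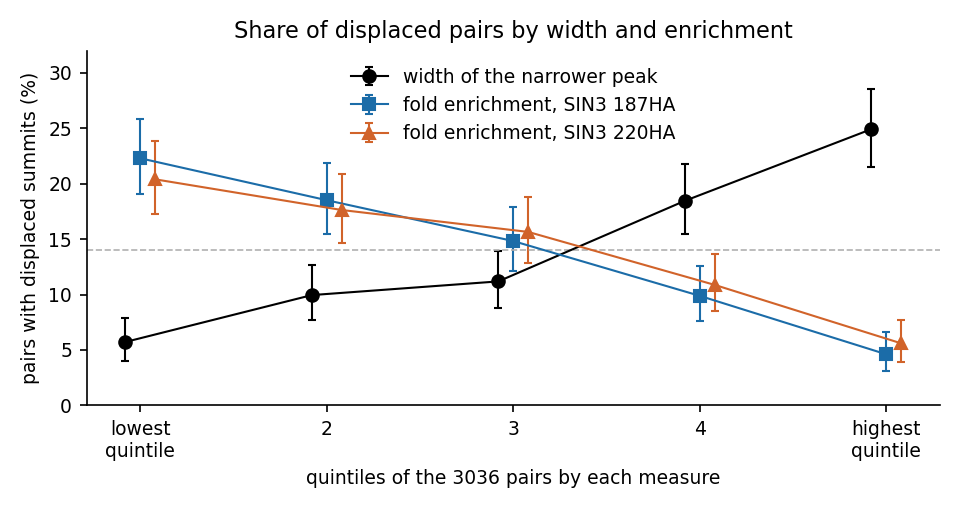
Percentage of eligible pairs with summits more than 150 bp apart, in quintiles of the 3036 pairs by the width of the narrower peak (black circles), by fold enrichment in the SIN3 187HA list (blue squares) and in the SIN3 220HA list (orange triangles). Bars are exact 95% intervals and the dashed line is the share over all pairs, and the share rises from 5.72 to 24.9% with width and falls from 22.3 to 4.61% with SIN3 187HA enrichment.

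Width and enrichment did not stand for one another. In each of the 5 quintiles of width, the displaced pairs had lower median percentiles of fold enrichment than the other pairs in both lists. In the widest quintile the medians were 48.5 for the 151 displaced pairs against 71.3 for the 455 others in the SIN3 187HA list, and 58.6 against 72.9 in the SIN3 220HA list. In the narrowest quintile they were 16.0 against 34.6 and 24.5 against 41.9, with 35 displaced pairs. The lower enrichment of the displaced pairs was thus present at every width.

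A small number of displaced pairs were strongly enriched. In 6 of 426 pairs both peaks were in the top 10% of their lists (1.41%, interval 0.52 to 3.04%), against 190 of 2610 others (7.28%, interval 6.31 to 8.34%) and a background of 6.46%. The pair with the highest mean percentile lay on 3R, with a SIN3 187HA peak at 20770445 to 20771228 (fold enrichment 14.9, pileup 234) and a SIN3 220HA peak at 20769911 to 20771230 (fold enrichment 14.1, pileup 462), and its summits were 173 bp apart. The next were on 3R at 4489382 to 4490436, with summits 233 bp apart, and on 3L at 19287595 to 19288758, with summits 254 bp apart (positions of the SIN3 187HA peaks). At these sites the summits rested on more than 200 fragments in each list.

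The last 2 of the 5 most enriched pairs were of unequal displacement. On 3L, the SIN3 187HA peak at 6488731 to 6489875 (fold enrichment 11.5) and the SIN3 220HA peak at 6488701 to 6489956 (fold enrichment 15.1) had edges that differed by 30 and 81 bp and summits 444 bp apart. On 3R, the peaks at 14228039 to 14229340 and 14227851 to 14229305 had fold enrichments of 13.1 and 13.1 and summits 258 bp apart. The site at 6488731 on 3L combined high enrichment, common edges and a long displacement.

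Over the displaced pairs as a whole, the balance between the isoforms was not markedly changed. The ratio of the fold enrichment of SIN3 220HA over that of SIN3 187HA was divided by its median over all eligible pairs, 1.1565, and a pair was counted as uneven past 1.5 times. The SIN3 220HA side was the higher by this measure at 59 of 426 sites (13.8%, interval 10.7 to 17.5%), with a background of 10.6%. The SIN3 187HA side was the higher at 49 sites (11.5%, interval 8.63 to 14.9%), with a background of 12.5%. The interval for SIN3 220HA lay just above its background, and that for SIN3 187HA included its background. The median relative ratio was 0.972 (quartiles 0.804 and 1.26). Among the sites with summits more than 500 bp apart both shares were higher. SIN3 220HA was the higher at 11 of 63 (17.5%, interval 9.05 to 29.1%) and SIN3 187HA at 13 of 63 (20.6%, interval 11.5 to 32.7%). These intervals are wide and include the background shares. The SIN3 220HA peak was the wider at 286 sites (67.1%, interval 62.5 to 71.6%), with a background of 69.1%.

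The most uneven sites are listed for both directions. On 3L, the SIN3 187HA peak at 17522714 to 17524114 was 4.81-fold enriched, whereas its SIN3 220HA partner at 17522527 to 17524420 was 14.6-fold enriched, a ratio 2.63 times the median, and the summits were 691 bp apart. The pairs at 5399047 to 5400707 on 3R and at 17008872 to 17009828 on 3L had relative ratios of 2.53 and 2.24 and summits 473 and 455 bp apart. In the other direction, the pair at 16447965 to 16449101 on 2L had fold enrichments of 9.35 for SIN3 187HA and 3.59 for SIN3 220HA, a relative ratio of 0.332, with summits 479 bp apart. At these sites both the level and the position of the summit differed between the lists.

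The remaining uneven sites towards SIN3 187HA were on 3L and 2L. The pair at 17943108 to 17944072 on 3L had fold enrichments of 10.6 and 4.12 and summits 221 bp apart. The pair at 552240 to 553959 on 2L, upstream of Ets21C, had fold enrichments of 9.69 and 3.97 and summits 648 bp apart, and it was the SIN3 187HA summit that lay nearer to the start of that gene.

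The displaced pairs were spread over the genome. Of the 426, 421 lay on the 5 large arms and 5 on chromosome 4 or heterochromatic sequence. The share of eligible pairs that were displaced was 10.8% on 2L (61 of 564, interval 8.37 to 13.7%), 13.4% on 2R, 16.4% on 3L (106 of 648, interval 13.6 to 19.4%), 13.4% on 3R and 16.2% on X (66 of 407, interval 12.8 to 20.2%). The autosomal arms together gave 13.6% (355 of 2614, interval 12.3 to 15.0%). This interval overlaps that of X, and the difference was not tested. The arm on which transcript starts could be read, 2L, had the lowest share.

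Over all displaced pairs, the share with a neighbouring peak was close to that of the other pairs. Another filtered peak of either isoform lay within 1000 bp at 123 of 426 sites (28.9%, interval 24.6 to 33.4%) and at 739 of 2610 other pairs (28.3%, interval 26.6 to 30.1%), with a background of 28.4%. Counting unfiltered peaks, the shares were 48.1% (205 of 426) and 47.7% (1245 of 2610), with a background of 47.8%. The median gap to the nearest other filtered peak was 2324 bp against 2224 bp. The shares were higher at the sites with summits more than 500 bp apart. Their intervals overlapped those of the other pairs, which does not show that the shares are alike, and the difference was not tested. Another filtered peak lay within 1000 bp at 23 of these 63 (36.5%, interval 24.7 to 49.6%). Another unfiltered peak did at 39 (61.9%, interval 48.8 to 73.9%), where the interval of the other pairs was 45.8 to 49.6%. The median gap to the nearest unfiltered peak was 538 bp against 1105 bp in the other pairs.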

How the data were processed

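The authors aligned reads to dm3 with Bowtie2 (version not given in the sources used here) after base calling with CASAVA 1.8.2, discarded reads that did not map uniquely, and ran MACS2 2.1.0 against the input on both replicates together, with duplicates kept. The deposited unfiltered lists give each peak's position, summit, score, the ratio of summit pileup to local background (fold enrichment), and p-value and q-value on the -log10 scale. The deposited filtered lists, recorded under input samples, hold the positions of peaks kept by the irreproducible discovery rate (whose cutoff the study gives inconsistently) and by 3-fold enrichment. Starts counting from 1 in the filtered lists and from 0 in the others were reconciled, and positions are given counting from 1.

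Pairs were found in Python 3.11.15 with numpy 2.4.6 and pandas 2.3.3, and intervals were computed with scipy 1.17.1 (exact Clopper-Pearson, 95%). Duplicates retained by the authors are not independent fragments. Summit pileup and background were recovered by solving for the deposited pair of fold enrichment and -log10 p-value, with 1 added to both pileup and background in the ratio and a Poisson tail for the p-value. The pileup was within 0.05 of a whole number for 9009 of 9011 SIN3 187HA and 8860 of 8862 SIN3 220HA unfiltered peaks, and for both peaks of all 426 displaced pairs. Total reads per sample were not used here, so these pileups stand for depth. On simulated lists 0 of 528 planted pairs were missed, and the partner pairs differed from those of bedtools 2.31.1 at 0 of 3869.

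The displaced pairs, the measures and the alternatives were chosen with earlier results of these data known. Sites were named by rule: the 10 longest distances, the 5 highest mean percentiles of fold enrichment, the 3 ratios farthest above and below the median, the 3 smallest sums of edge differences, and the 2 pairs just inside and just outside the limit. The analysis of transcript starts was added after the data had been seen, and its sites are named for that reason. It used the dm3 positions of RefSeq transcripts that accompany the study, held for the first part of 2L only, with symbols from a RefSeq table of Release 6 used for names alone. No sequence is shown, because no dm3 genome was held. Figures were drawn with matplotlib 3.10.9.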

Additional observations from a re-analysis of the deposited data

How the results depend on the processing

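No paired analysis was possible because peaks were called on both replicates of each isoform together and no test was made, and no replicate could be left out. Of 82 values under alternative settings, 52 stayed within the main interval, or within 1.5 times the main count. The number of displaced pairs moved to 240 with more than 250 bp required, to 183 at 5-fold enrichment or more, and to 758 in the unfiltered lists. Their share of the eligible pairs moved from 14.0% to 18.5% with more than 100 bp, 10.6% with more than 200 bp and 7.91% with more than 250 bp, to 16.2% with no peak required under 1500 bp, to 12.7% and 9.60% at 4-fold and 5-fold, and to 16.4% in the unfiltered lists. With partners also required to be unique in the other unfiltered list, 389 of 2871 eligible pairs were displaced (13.5%). The median displacement relative to the narrower peak moved to 29.1%, 40.2%, 30.2% and 41.0% with more than 100 bp, with more than 250 bp, at 5-fold and in the unfiltered lists. The share with both edges kept moved with the tolerance itself, to 16.9, 47.9 and 62.9% at 50, 150 and 200 bp. The median percentile of fold enrichment moved by construction at 5-fold, to 55.9 for SIN3 187HA and 64.2 for SIN3 220HA, and in the unfiltered lists, ranked there, to 49.4 and 53.6. The share of uneven pairs with SIN3 220HA the higher moved to 8.20% at 5-fold, 17.5% in the unfiltered lists, 25.4 and 3.05% with the lower and the higher limit on the ratio, and 10.6% by recovered pileup. With SIN3 187HA the higher it moved to 4.37% at 5-fold, and to 24.6 and 3.76% with those 2 limits. For the changes other than those of construction the cause was not tested. The alternatives for the transcript starts were chosen after seeing the data. The SIN3 220HA summit was downstream at 73.3 to 81.2% of sites under 7 of them, and at 100% with starts of 1 strand between the summits. The even split in genome coordinates held in all 5 alternatives, between 50.8 and 51.7%.

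The values rest on 1 summit per joined list, so the spread of a summit between replicates is unknown. The transcript starts covered 34 of 426 sites, on 1 arm.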
